A study of Drosophila melanogaster with 3 samples.

Results

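The regions described here are the intronic binding sites of CG4617 that lie away from promoters. A site was counted when the summit of a peak in the deposited thresholded list lay more than 500 bp from every transcription start of a protein-coding gene, inside a protein-coding gene, and in no annotated exon of a gene of any type. This positional rule, which used the Ensembl release 115 annotation of dm6 and no signal value, picked 646 of 5558 peaks (11.6%, 95% Wilson interval 10.8 to 12.5%). They make up 63.0% of the 1026 peaks outside promoters. Promoter peaks, with a summit within 500 bp of a protein-coding start, numbered 4532, intergenic peaks 288, and 92 fell elsewhere. Among these, 12 summits lay in introns of protein-coding genes but inside an exon of a noncoding gene.

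The study carried out chromatin immunoprecipitation and sequencing (ChIP-seq) with an antibody against GFP on whole embryos of mixed sex aged 0 to 24 hours. The flies were of 1 transgenic line of Drosophila melanogaster, strain CG4617-GFP, which expresses CG4617-eGFP with the tag at the C-terminal end of the protein, and there were 3 biological replicates of this 1 group. Untagged or mock samples were not analysed here, and each value averages over all cell types and stages of the collection. Which promoter drives the tagged gene is not stated in the labels. The reads per library are unknown, so the signal of a region is the authors' deposited value on an unstated scale, and intervals given below cover counting error only.

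In animal genomes, introns carry many of the enhancers, the DNA elements that bind transcription factors and raise transcription from a promoter at a distance. In flies, long introns near the start of developmental genes are well-known hosts of such elements, and first introns often hold further start sites and open chromatin. Enhancers and promoters differ in their sequence, since many fly promoters carry elements such as the DRE and motif 1, which position the transcription machinery.

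The sequence at the intronic summits was poor in G and C. Windows of 8 of the 9 strongest intronic peaks are shown so that the composition can be read directly, and the remaining one, in HmgZ and HmgD, is left out because sequence of its chromosome arm is not printed here. Each line gives the 60 bases on either side of the summit on the plus strand of dm6, with sequence from RefSeq, and capitals mark unbroken runs of 8 or more A or T bases.
ush, chr2L:480997-481117: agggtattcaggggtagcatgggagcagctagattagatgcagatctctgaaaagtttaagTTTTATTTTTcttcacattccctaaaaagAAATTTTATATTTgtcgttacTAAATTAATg
CG11050, chr2L:6612647-6612767: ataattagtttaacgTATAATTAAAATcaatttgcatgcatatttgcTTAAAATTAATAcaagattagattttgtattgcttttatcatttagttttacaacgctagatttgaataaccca
Lk6, chr3R:11760992-11761112: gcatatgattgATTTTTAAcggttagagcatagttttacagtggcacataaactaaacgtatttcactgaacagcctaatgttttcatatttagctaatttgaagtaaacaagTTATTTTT
CG32772, chrX:4910302-4910422: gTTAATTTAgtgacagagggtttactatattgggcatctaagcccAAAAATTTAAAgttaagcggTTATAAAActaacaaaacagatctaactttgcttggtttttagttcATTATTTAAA
CG9663, chr2L:3302139-3302259: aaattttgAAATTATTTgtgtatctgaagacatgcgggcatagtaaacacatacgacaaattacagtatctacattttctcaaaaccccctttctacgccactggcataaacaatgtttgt
Tlk, chrX:3742161-3742281: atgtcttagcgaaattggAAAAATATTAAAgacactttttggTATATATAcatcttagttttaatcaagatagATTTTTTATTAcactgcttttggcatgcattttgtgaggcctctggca
Trl, chr3L:14759444-14759564: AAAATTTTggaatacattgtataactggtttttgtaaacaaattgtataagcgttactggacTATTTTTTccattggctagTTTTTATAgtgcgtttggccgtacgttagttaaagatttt
Raf, chrX:2297661-2297781: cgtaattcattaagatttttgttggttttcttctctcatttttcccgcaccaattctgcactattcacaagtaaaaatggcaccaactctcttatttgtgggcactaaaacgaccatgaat

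These 8 windows of 121 bases had a GC content of 22.3% to 36.4%, the lowest at CG11050 and the highest at Raf. Of the 8 windows, 7 held at least 1 such run and CG32772 held 4, while Raf held none. Over the 646 intronic peaks, a run of this length lay within 100 bp of the summit in 93.3%, against 76.5% of windows of equal width centred 500 bp to either side, 84.7% of promoter peaks, 91.0% of intergenic peaks and 79.8% of 246898 windows of 201 bases tiled over all intronic sequence that meets the rule. The flanks held one at 57.1% of promoter and 72.6% of intergenic peaks, so summits were above their flanks in every class, and by most at promoters.

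Median GC content within 100 bp of the summit was 34.8% at intronic peaks, against 42.0% in their own flanking windows. It was 40.8% at promoter peaks, 35.8% at intergenic peaks and 40.3% over the tiled introns. In bins of 50 bp the mean fell to 32.3% at the summit of intronic peaks, against 43.9% in the bin 150 bp downstream on the plus strand and 42.9% in the bin 150 bp upstream. The low stretch was thus narrow, with 34.3% at 50 bp upstream and 35.7% at 50 bp downstream. Promoter peaks had no such narrow dip: the mean was 41.3% at the summit, and it lay between 40.4% and 41.7% in the bins 150 bp away and reached 45.8% at 1000 bp.

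A dip was scored for each peak when the 101 bases at the summit had a lower GC content than the 101 bases centred 150 bp away on both sides. Of the 646 intronic peaks, 436 had one (67.5%, 63.8 to 71.0%), against 1137 of 4532 promoter peaks (25.1%, 23.8 to 26.4%) and 162 of 288 intergenic peaks (56.2%, 50.5 to 61.9%). With the windows of 201 bases and flanks 500 bp away the gap was smaller, at 393 of 646 intronic (60.8%) and 2013 of 4532 promoter peaks (44.4%). Promoter flanks at that distance had a median GC content of 46.0%. The same was counted in the 5558 strongest regions of each replicate list. There the share of intronic regions with a dip was 61.7%, 64.2% and 63.1% in replicates 1, 2 and 3, and that of promoter regions 22.0%, 24.6% and 29.9%. The difference, intronic minus promoter, averaged 37.5 ± 3.71 percentage points (SD, n = 3) and was positive in each replicate (two-sided exact sign-flip permutation test, p = 0.25, the smallest that 3 replicates allow). The median GC content of intronic regions in these lists was 35.7 ± 1.04% at the summit and 41.7 ± 0.518% in the flanks (SD, n = 3), lower at the summit in 3 of 3 replicates (exact p = 0.25). Within the intronic peaks the summit median hardly moved with signal: in 4 bins of equal size, strongest to weakest, it was 35.1%, 34.3%, 34.3% and 34.8%.

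**Figure D1:**
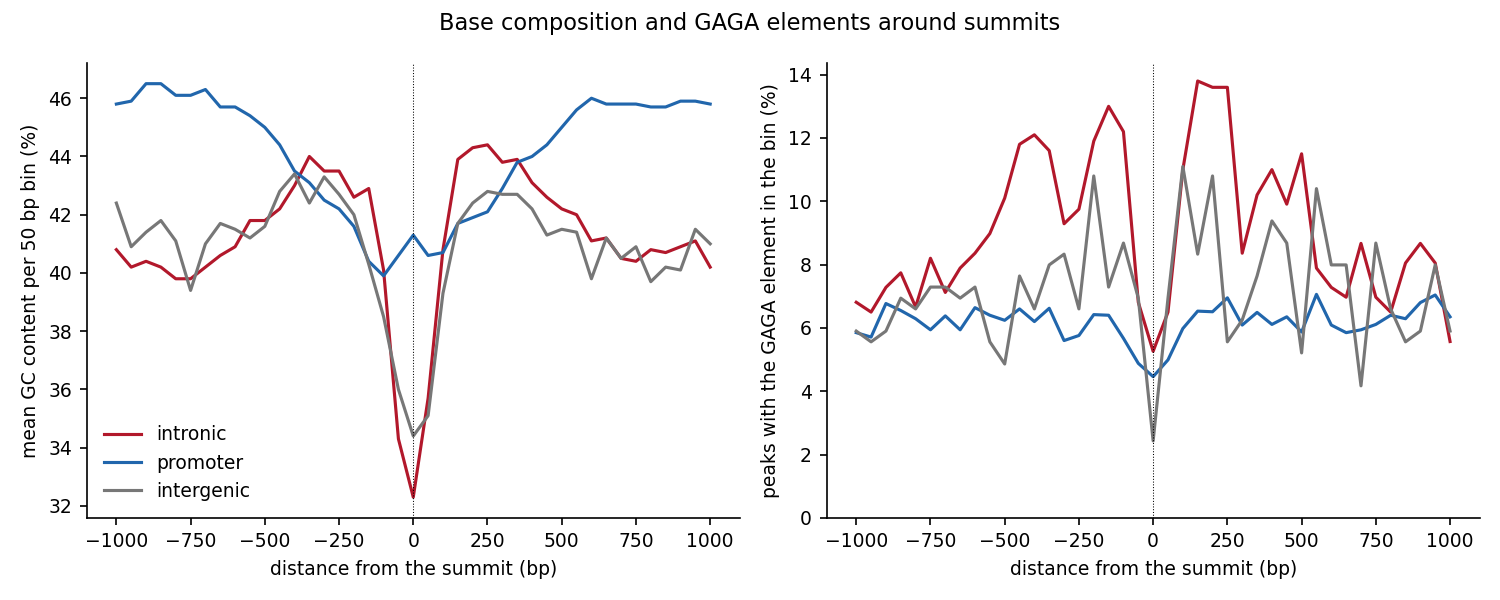
Left, mean GC content (%) in bins of 50 bp against distance from the summit (bp, plus strand) for 646 intronic, 4532 promoter and 288 intergenic peaks; right, share of the same peaks (%) with a GAGAG element in each bin. The intronic line falls to 32.3% GC at the summit while the promoter line stays near 41.3%, and intronic GAGAG elements are rarest at the summit (5.26%) and most frequent 150 bp downstream (13.8%).

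The GAGA element GAGAG, searched on both strands, is the core letters bound by GAGA factor, a protein of open promoters and enhancers. It lay within 100 bp of the summit in 163 intronic peaks (25.2%, 22.0 to 28.7%), against 19.6% of all peaks, 18.5% of promoter peaks, 22.2% of intergenic peaks and 21.4% of the tiled introns. The flanking windows of the intronic peaks held it more often than the summits, in 32.0%, while the flanks of promoter peaks held it in 21.5%. By bins of 50 bp, 13% of intronic peaks had it 150 bp upstream of the summit, 5.26% at the summit and 13.8% 150 bp downstream. Beyond 700 bp the share was between 5.57% and 8.67%. The letters thus stood beside the summits more often than at them, and not only at intronic peaks. Intergenic peaks had GAGAG in 2.43% at the summit, 10.8% at 200 bp upstream and 11.1% at 100 bp downstream. Promoter peaks had it in 4.46% at the summit and 6.53% at 150 bp downstream. Its lower share at intronic summits cannot be told apart from the low GC content there. Repeats of the same kind were also rarer at intronic summits: GAGAGAGA lay in 1.70% of intronic summit windows and 4.41% of their flanks, and CACACACA in 4.95% and 9.60%. In the strongest regions of single replicates GAGAG was in 30%, 24.6% and 22.0% of intronic summit windows and in 30.5%, 31.3% and 29.7% of their flanks, so in replicate 1 the shares were nearly equal (summit minus flank, mean -4.98 ± 3.88 points, SD, n = 3; exact p = 0.25).

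Of the same peaks, the strongest with a GAGAG element on each side of the summit at 50 bp or more and none nearer was in Lk6, which encodes a kinase of the translation initiation factor eIF4E. It is shown over 291 bases because both features can be read in it, with GAGAG and its reverse complement CTCTC in capitals. The summit is the middle base, and the 101 central bases had 30.7% GC, against 42.6% in the bases around them.
Lk6, chr3R:11760907-11761197: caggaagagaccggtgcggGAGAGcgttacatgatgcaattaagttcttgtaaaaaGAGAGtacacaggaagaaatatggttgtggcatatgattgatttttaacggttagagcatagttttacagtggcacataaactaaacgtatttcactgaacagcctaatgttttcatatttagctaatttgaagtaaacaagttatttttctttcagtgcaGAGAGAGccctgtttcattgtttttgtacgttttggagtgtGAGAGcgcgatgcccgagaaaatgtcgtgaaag

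Of the other letters searched on both strands, the DRE and motif 1 were each at 1 intronic summit. The DRE, TATCGATA, had a share of 0.155%, against 9.25% of promoter peaks and 0.450% of the tiled introns. Motif 1, GGTCACACT, had the same share, against 8.63% of promoter peaks and 0.0956% of the tiled introns. The shorter core CGATA was at 19.7% of intronic summits, 41.1% of promoter peaks and 20.1% of the tiled introns. These matches describe letters in a window and say nothing of which protein was there.

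TATAAA lay at 37.3% of intronic summits (33.7 to 41.1%), against 21.7% of their flanks, 24.0% of promoter peaks, 32.6% of intergenic peaks and 24.2% of the tiled introns. TCAGT, a core of the initiator element, lay at 39.3% (35.6 to 43.1%), against 28.2%, 29.5%, 37.2% and 28.4% of the same sets. In the strongest regions of the replicates, TATAAA was in 36.1 ± 3.42% of intronic summit windows and 21.6 ± 0.857% of flanks, and TCAGT in 36.5 ± 1.06% and 29.1 ± 0.628% (SD, n = 3), both higher at the summit in 3 of 3 replicates (exact p = 0.25 each). TATAAA is itself built of A and T, so its share cannot be told apart from the low GC content of the windows. Whether the share of TCAGT follows from that content was not tested. In 4 bins of intronic peaks by signal, strongest to weakest, TCAGT lay at 38.9%, 40.7%, 35.4% and 42.2%. GCCAT, the core of the Pho site, went the other way, at 24.9% of summits and 33.7% of flanks. It holds G and C, so this too cannot be told apart from the low GC content. The remaining letters searched, among them those of Zelda, GATA factors, AP-1, Twist, CTCF, Su(Hw) and Hox proteins, lay at intronic summits and in their flanks at shares within 4 percentage points of each other. Several were rare, so such a gap can be large in proportion. CTCF letters lay at 5.88% of summits and in 9.52% of flanks, and Twist letters at 7.74% and 10.4%. Those of the other proteins named were more frequent at summits, such as Zelda at 5.26% and 4.02%.

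Words of 6 letters were chosen on arms 2L and 2R by their excess at intronic summits over flanks and then described on the other arms. The top 3 were again made of A and T. On the other arms, with 442 intronic peaks, AAATAA lay at 54.1% of summits and in 37.4% of flanks. There TAAAAA lay at 43.2% of summits and in 33.8% of flanks, and a run of 6 A bases at 44.1% and 39.8%. On the same arms TAAAAA lay at 43.5% of promoter and 52.9% of intergenic summits, AAATAA at 46.2% and 54.7%, and the run of 6 A bases at 41.2% and 49.4%.

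The signal of intronic peaks was mostly modest, with a few of the strongest sites of the whole list among them. The median was 186 (quartiles 152 and 243, range 129 to 1630), against 228 for promoter peaks (172 and 317, 129 to 2038) and 182 for intergenic peaks (150 and 239, 129 to 1401). In 5 bins of equal size from the strongest to the weakest peaks, 6.56%, 7.64%, 11%, 15% and 17.9% were intronic. At the very top, 5 of the 20 strongest and 14 of the 100 strongest peaks were intronic, against 11.6% of all peaks. These are small counts, and the second is close to the share over all peaks. Most of the regions were drawn at a fixed width: 526 of the 646 were 440 bp wide with the summit in the middle. A GC dip was seen in 64.8% of these and in 79.0% of the 119 narrower ones.

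The intronic peak with the highest signal lay 1369 bp from the nearest start in the first intron of ush, whose product partners GATA factors. Its signal was 1630 in the thresholded list and 486, 616 and 520 in replicates 1, 2 and 3, ranking it 4, 3 and 2 in their lists. CG11050 followed, with 419, 540 and 383 in the replicates. All 3 replicates thus placed both sites among their 13 strongest regions. The CG11050 intron is only 140 bp long, so the peak, from 6612525 to 6612894 on 2L, also covered exons.

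The Lk6 peak was next by signal, in a first intron of 3404 bp and 973 bp from a start, with signals of 365, 437 and 374. The next lay where HmgZ and HmgD, genes of neighbouring HMG-box chromatin proteins, both have an intron, 607 bp from a start, with 268, 487 and 409. There replicate 1 stood lower, at rank 87, against rank 11 in each of the others. CG32772 had 282, 456 and 325 and CG9663 had 274, 414 and 265. Tlk, which encodes the Tousled-like chromatin kinase, had 290, 364 and 251 at a summit 2324 bp from a start. Trl, the gene of GAGA factor itself, had 271, 315 and 239 in its intron of rank 2, in a window with no GAGAG within 100 bp of the summit. These 8 sites were the only intronic ones among the 100 strongest regions of each of the 3 replicates, where 46 peaks of all kinds stood.

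Below them in signal came Raf, the kinase that relays Ras signals, with a pooled signal of 828, then CG3726 (768), CG9837 (724) and CG46321 (720), whose host stretch it shares with Hr3, an ecdysone-induced nuclear receptor gene. Adf1, a transcription factor gene, had 708, CG32486 675 and CG12769 669. At trx, which encodes the Trithorax histone methyltransferase, the signal was 654, at chif, the partner of the replication kinase Cdc7, 649, and at LPCAT, a phospholipid acyltransferase gene, 642. The list of 20 closed with mub, an RNA-binding KH protein gene, at 617, and Gug, the Atrophin corepressor gene, at 590. All 20 were held by the strongest regions of all 3 replicates. They were chosen by a pooled signal made from the same 3 libraries, so this was nearly fixed in advance. Among peaks in the strongest bin of pooled signal, all 3 replicates held 98.6% of intronic and 95.3% of promoter peaks. Of the 20, 11 lay in a first intron, as did 55.1% of all 646 intronic peaks. Within 3 kb of a start lay 16, where the median distance over all 646 was 2348 bp. A promoter peak was also present at 13 of the 20 hosts, against 54.4% of all hosts. GAGAG lay within 100 bp at 9 of the 20, against 25.2% of all intronic peaks.

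Replicate support for the whole set was uneven between libraries. A summit was called held by a replicate when it lay inside one of the 5558 strongest regions of that replicate. All 3 replicates held 333 of 646 intronic summits (51.5%, 47.7 to 55.4%), against 63.7% of promoter summits, 49.0% of intergenic ones and 61.4% of all peaks. Another 248 intronic summits were held by 2 replicates, 63 by 1 and 2 by none.

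Replicate 1 held 61.5% of intronic summits, replicate 2 87.0% and replicate 3 92.7%. For promoter summits the shares were 89.6%, 91.0% and 76.3%. The strongest regions of replicate 1 thus held fewer intronic than promoter summits, those of replicate 3 more, and the difference changed sign between them, with -28.1, -3.96 and 16.5 points in the 3 libraries (mean -5.20 ± 22.3, SD, n = 3; two-sided exact sign-flip test, p = 0.750). With replicate 1 left out, the share held by both others was 11.3 points higher for intronic than for promoter summits. With whole replicate lists, all 3 held 96.4% of intronic and 85.7% of promoter summits, and replicates 1, 2 and 3 held 99.4%, 99.1% and 97.8% of intronic ones. The lists had 30000, 17251 and 14368 regions, so the strongest 5558 are a different fraction of each. The replicates also differed without the thresholded list: of the strongest 5558 regions, 470 in replicate 1 (8.46%), 668 in replicate 2 (12%) and 1076 in replicate 3 (19.4%) were intronic by the same rule (mean 13.3 ± 5.56%, SD, n = 3). Over the whole lists the intronic shares were 32.8%, 28.9% and 32.5%, without that order. Intergenic peaks moved with the intronic ones, at 59.7%, 85.1% and 91.7% held.

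Within bins of equal pooled signal, intronic peaks were held by all 3 replicates as often as promoter peaks or more often, except in the weakest bin. From the strongest bin to the weakest the shares were 98.6%, 97.6%, 78.7%, 44.3% and 4.02% for intronic peaks and 95.3%, 86.5%, 68.2%, 40.5% and 15.8% for promoter peaks. In the weakest bin this came to 8 of 199 intronic peaks. Across intronic peaks, which share libraries and are not independent, Spearman's rho of the signal was 0.685 between replicates 2 and 3 (627 peaks), 0.529 between 1 and 2 (636) and 0.472 between 1 and 3 (628). The median percentile of intronic summits within a replicate's whole list was 83.7, 79.5 and 82.8, against 92.0, 86.3 and 80.9 for promoter summits (difference -4.37 ± 5.54, SD, n = 3; exact p = 0.5).

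**Figure D2:**
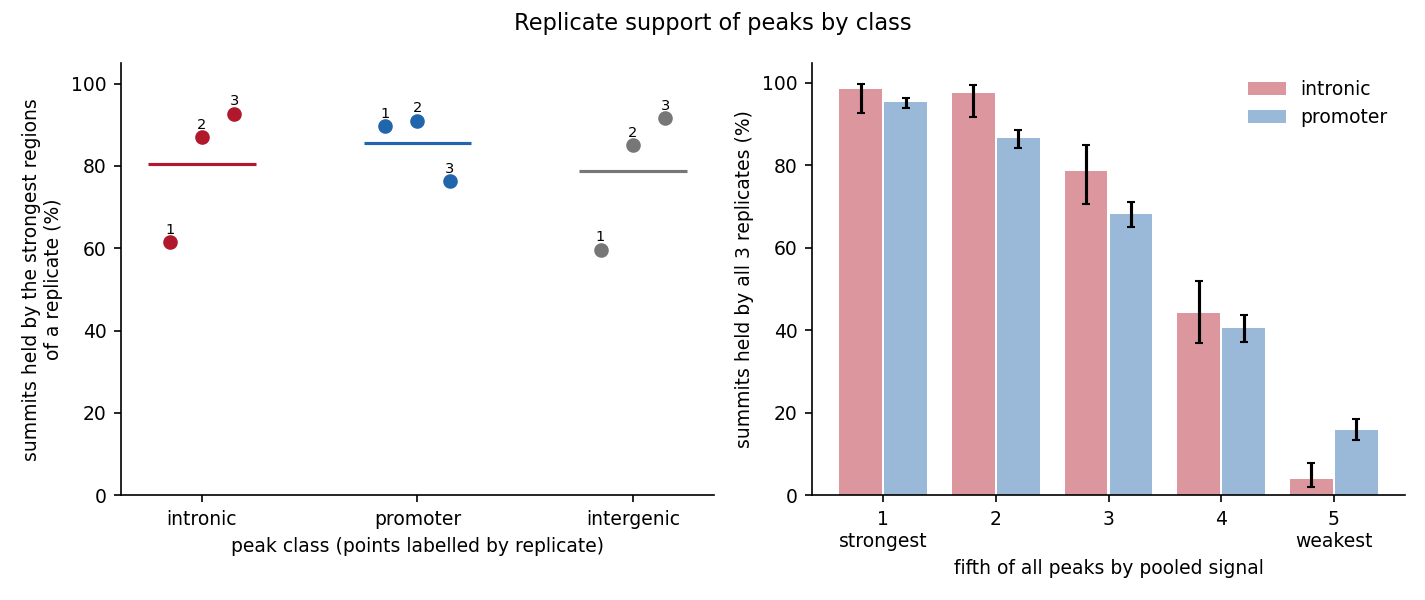
Left, share of summits (%) held by the 5558 strongest regions of each replicate for intronic, promoter and intergenic peaks, with points numbered by replicate and lines at the means; right, share held by all 3 replicates in 5 bins of equal size by pooled signal, with 95% Wilson intervals. Intronic points run from 61.5% in replicate 1 to 92.7% in replicate 3, and the intronic bars fall from 98.6% to 4.02%.

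Intronic peaks gathered near protein-coding starts, which were counted over all transcripts of all genes and need not be the 5′ end of the host. The nearest protein-coding start was at a median of 2348 bp (quartiles 1093 and 5664, range 504 to 53461). The summit lay at a median of 6784 bp, or 30.4% of the gene's length, into the host gene. Of 646, 469 (72.6%, 69.0 to 75.9%) lay nearer the 5′ end of the host than its 3′ end. The share of all sequence meeting the positional rule that lies nearer a 5′ end was not counted. Because long introns offer more room, counts were set against the 53.0 Mb of sequence that meets the positional rule, called eligible sequence below. Over all of it there were 12.2 intronic peaks per Mb (11.3 to 13.2, 95% Poisson interval).

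At 501 to 1000 bp from a start there were 35.0 peaks per Mb of eligible sequence (29.4 to 41.4). The density was 24.9 at 1001 to 2000 bp, 14.0 at 2001 to 5000 bp, 10.5 at 5001 to 10000 bp and 5.08 at 10001 to 20000 bp. Beyond that it was 2.55 (1.71 to 3.66), from 29 peaks. Each step away from a start thus had a lower density. In the strongest regions of the replicates, the density within 2 kb of a start was 21.0, 30.1 and 45.5 per Mb, against 4.18, 5.92 and 10.6 beyond 5 kb, higher near the start in 3 of 3 replicates (difference 25.3 ± 9.10, SD, n = 3; exact p = 0.25).

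The limit of 500 bp cut through this slope. Just inside the set were PNUTS, a regulator of protein phosphatase 1, with a summit 504 bp from a start and a signal of 334, and ITP at 506 bp and 335. Just outside were Vha26, a subunit gene of the vacuolar proton pump, at 494 bp and 212, and Pino at 491 bp and 194. The farthest sites were in hth, a homeobox gene, at 53461 bp, in mamo at 42284 bp and in CG43759 at 41341 bp, with signals of 139, 184 and 135. The mamo site was held by all 3 replicates, the CG43759 site by 2 and the hth site by 1.

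First introns held 356 of the 646 intronic peaks (55.1%, 51.3 to 58.9%) but 29.8% of eligible sequence. Introns of rank 2 held 195 (30.2%, of 26.8% of the sequence), those of rank 3 held 40 (6.19%, of 12.4%) and later ones 55 (8.51%, of 31.0%). The density per Mb was 22.5 in first introns, 13.7 in introns of rank 2, 6.08 in rank 3 and 3.34 in later ones. First introns were also denser within each class of distance. They had 40.3 peaks per Mb at 501 to 2000 bp from a start, against 17.2 in later introns, 18.0 against 11.5 at 2001 to 5000 bp, and 11.2 against 4.73 beyond 5000 bp. Rank was read in the longest transcript whose intron holds the summit. Read as the lowest rank in any transcript, 480 peaks (74.3%) were in a first intron, against 42.0% of eligible sequence. Among the strongest regions of the replicates, the share of intronic regions in first introns was 57.4%, 54.8% and 51.8%.

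Intron length showed a middle range of highest density. Throughout, intron length is the gap between exons merged over all transcripts of the host, which can be shorter than the intron of 1 transcript. The introns holding the peaks had a median length of 7664 bp (64 to 106798), while the median eligible base lay in an intron of 12236 bp. Measured as the intron of the longest transcript instead, the median at the peaks was 11448 bp. There were 6.79 peaks per Mb in introns up to 1 kb, 19.8 at 1001 to 2000 bp, 20.6 at 2001 to 5000 bp and 17.5 at 5001 to 10000 bp. Longer introns had 12.1 up to 20000 bp, 8.88 up to 50000 bp and 3.38 above it. The longest were in jing (106798 bp) and in Snoo, with 3 peaks in an intron of 78434 bp. Within their introns the summits lay at a median of 2478 bp from the 5′ end, and 346 of 646 (53.6%, 49.7 to 57.4%) lay nearer the 5′ end than the 3′ end, an interval that takes in an even split.

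**Figure D3:**
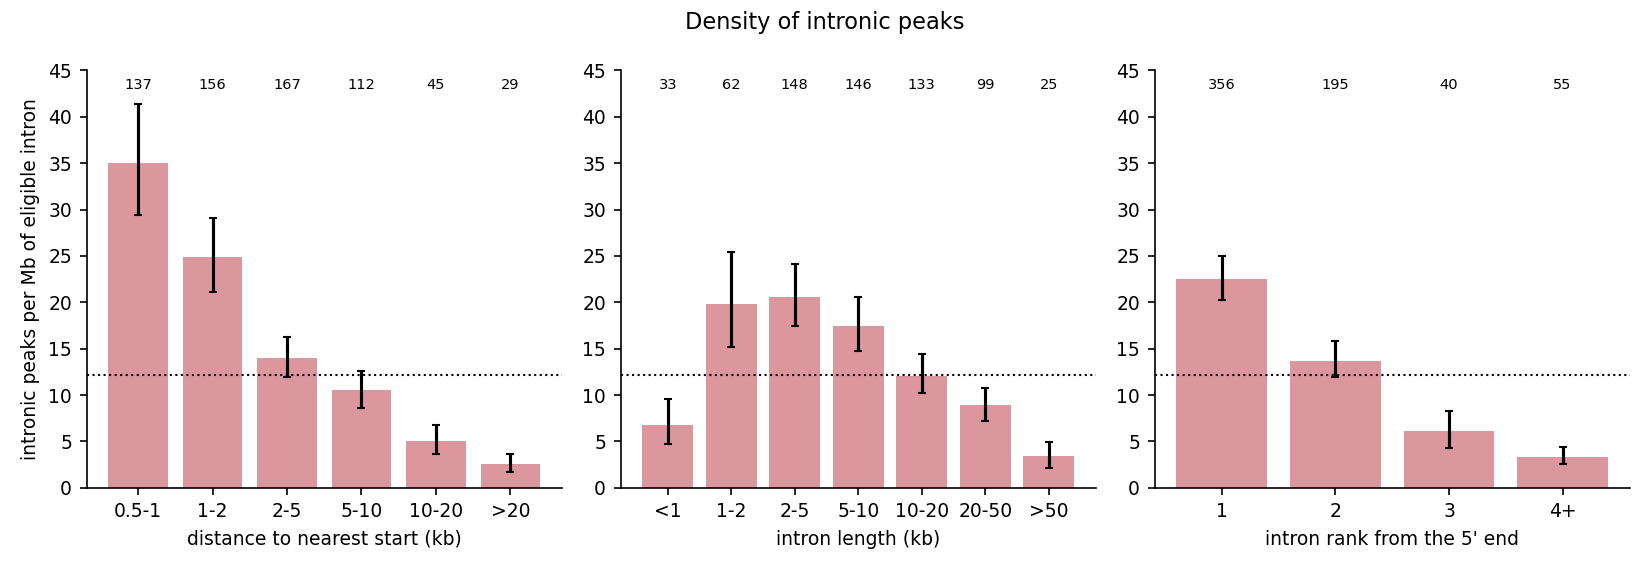
Intronic peaks per Mb of eligible intronic sequence by distance to the nearest protein-coding start (kb), intron length (kb) and intron rank, with 95% Poisson intervals, the number of peaks above each bar and a dotted line at the overall 12.2 per Mb. Density falls from 35.0 nearest the starts to 2.55 beyond 20 kb, and from 22.5 in first introns to 3.34 in those of rank 4 or more.

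By chromosome arm, X held more intronic peaks than its share of sequence. It had 169 of them (26.2%), against 16% of all peaks and 18.1% of eligible sequence, which is 17.6 per Mb (15 to 20.4). The arms 2L, 2R, 3L and 3R had 11.6, 11.3, 11.8 and 10.9 per Mb. Chromosome 4 had 1 intronic peak of its 60 peaks, and Y had none. In the strongest regions of the replicates X had 1.31, 1.67 and 1.36 times the density of the 4 large autosome arms (difference 5.82 ± 2.77 per Mb, SD, n = 3; exact p = 0.25). In the whole replicate lists, however, X held 19.8%, 17.9% and 16.8% of intronic regions, close to its share of sequence. The mixed sex of the embryos means that X and autosomes differ in copy number, and the part of this in the result was not tested.

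The summit lay in soft-masked sequence in 24.1% of intronic peaks, against 23.3% of eligible bases. None of the 646 summits lay in an annotated transposable element, which cover 6.74% of eligible bases. How reads that match several places were treated is not given. Whether peaks could be called in such elements is therefore unknown. A start of a noncoding gene lay within 500 bp of 18 summits (2.79%).

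The 646 peaks lay in 465 host genes, which is 5.15% of the 9034 protein-coding genes with any eligible sequence. Intronic peaks lay mostly in long genes: the gene around a peak had a median length of 25060 bp, against 3503 bp over all genes with eligible sequence. The first median is over peaks, so a host with several peaks counts several times in it. Of genes with up to 1000 bp of eligible sequence, 0.231% were hosts, of those with 1001 to 5000 bp 6.37%, of those with 5001 to 20000 bp 15.9% and of those with more 25.3%. Another host gene overlapped at 33 of the peaks.

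Peaks often shared a host. There were 352 hosts with 1 peak and 113 (24.3%) with 2 or more, of which 36 had at least 3 and 9 at least 5. The 113 hosts took 294 of the 646 peaks (45.5%). Neighbouring summits in a host were a median of 3849 bp apart (199 to 85735, 181 pairs), 16.6% of pairs within 1000 bp and 58.6% within 5000 bp. Overlapping regions, which are not separate sites, involved 20 peaks. Among the strongest regions of the replicates, 19.0%, 25.2% and 28.5% of hosts had 2 or more intronic regions.

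The gene with most intronic peaks was sbb, which encodes the corepressor Scribbler, with 9. Of these, 8 lay in its intron of 49364 bp and stretched over it from 3024 to 49759 bp into the gene. The strongest, at 18819 bp, had a signal of 362 and was held by all 3 replicates, as were 3 of the others. ush had 8, from 4837 to 45889 bp into the gene. The first of these was the strongest intronic peak of all, at 1630, and the other 7 had 130 to 263. Raf had 7 in 1 intron, between 1013 and 34050 bp, and 6 of them were held by all 3 replicates. CG1677 had 6 in an intron of 72465 bp, all of them nearer the 3′ end of the gene, from 69482 to 113741 bp. Other genes lie inside this intron, among them Atg5, Dok and CBP, and the 6 summits were 758 to 3027 bp from the nearest start. These sites are therefore not clearly tied to CG1677.

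The next hosts had 5 or 4 peaks each. Hr4, an orphan nuclear receptor gene, had 5 peaks, with a strongest signal of 421, and Eip75B, the ecdysone-induced receptor E75, had 5 of 146 to 181. Tlk had 5, simj, a subunit gene of the NuRD chromatin complex, had 5, and tara, which encodes a protein of the Trithorax group, had 5. CHES-1-like, a forkhead factor gene, had 4, each held by all 3 replicates with signals of 280 to 414. shn, which encodes a zinc-finger partner of Mad, had 4, and PRAS40, an inhibitor of the kinase TOR, had 4. At simj, tara and PRAS40 some of the peaks overlapped, so fewer separate sites are present there.

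**Figure D4:**
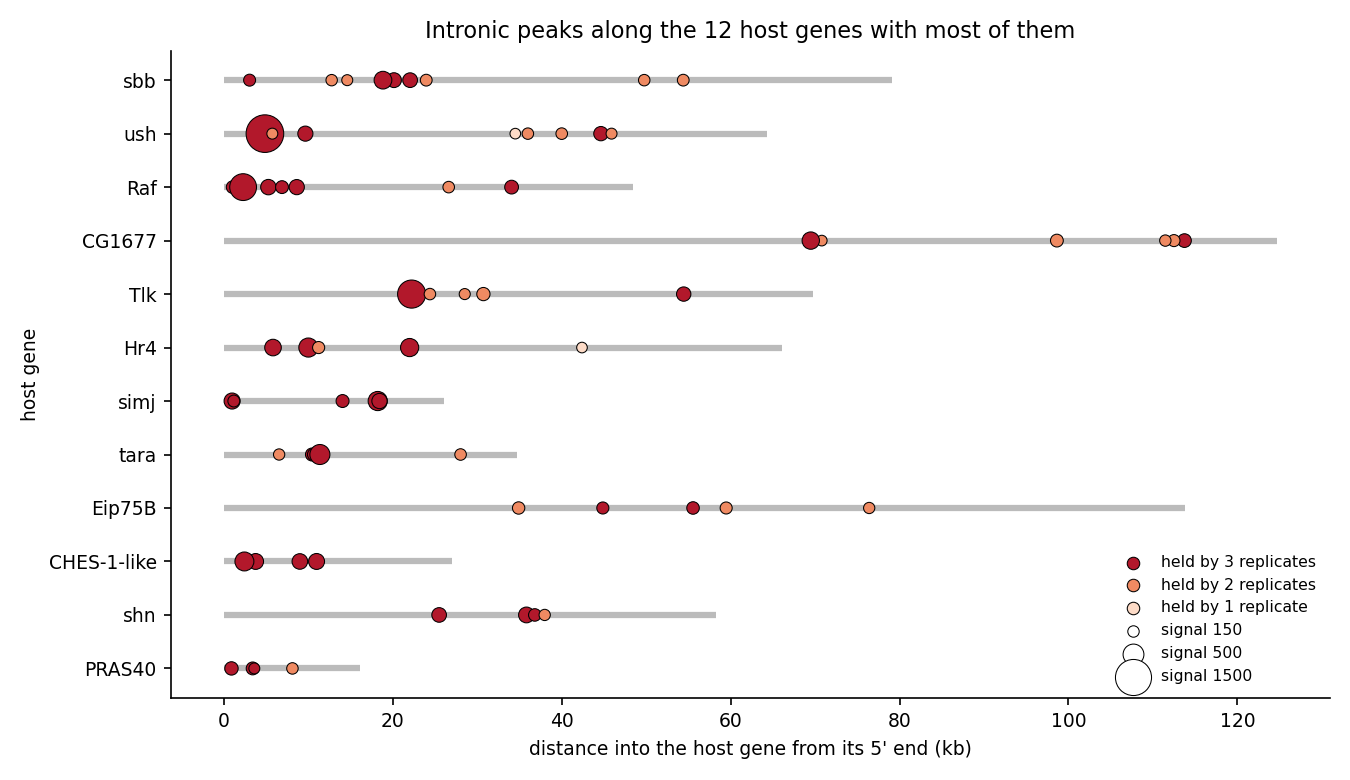
Intronic peaks along the 12 host genes with most of them, as distance into the gene from its 5′ end (kb), with grey bars for gene length, circle area for pooled signal and shade for the number of replicates holding the summit. One site of signal 1630 dominates ush, while sbb, Eip75B and CG1677 carry several sites of similar, lower signal.

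Hosts had a promoter peak at a start more often than genes at large. A peak was counted for every gene with a start within 500 bp of its summit, so neighbouring genes can share it. Genes with more starts have more chances to be counted, and the number of starts was not taken into account. Of 465 hosts, 253 did (54.4%, 49.9 to 58.9%), against 37.1% of all 13968 protein-coding genes and 42.7% of those with eligible sequence. Genes with much intronic sequence had promoter peaks less often, and hosts stood above all genes within each class of it. The shares were 76.9% of hosts (10 of 13) and 46.2% of genes with up to 1000 bp, 56.7% and 41.8% with 1001 to 5000 bp, 59.8% and 35.5% with 5001 to 20000 bp, and 46.0% and 27.3% with more. In the strongest regions of the replicates, 58.7%, 54.8% and 49.0% of hosts had a promoter region, against 43.5%, 42.0% and 39.0% of genes with eligible sequence, higher in 3 of 3 replicates (difference 12.6 ± 2.61 points, SD, n = 3; exact p = 0.25). Hosts without one included ush, Hr4, tara, shn and PRAS40.

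Groups of genes differed widely in how many hosted an intronic peak. Their share is given against 2 values, the 5.15% of all genes with eligible sequence, and the share expected if each gene hosted at the rate of all genes in its class of eligible sequence. The second is the closer comparison, because most of the groups hold long genes. The lists were chosen with earlier results of these data known, so shares above either value may be partly fixed by that choice. The replicates also fed the same thresholded list, so their shares are no independent check. The shares below are description only. Replicate values are shares of genes hosting an intronic region among the strongest regions of replicates 1, 2 and 3, where all genes had 4.07%, 5.27% and 7.94%.

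Genes of BMP, EGFR and FGF signalling, the growth factor pathways of embryonic patterning, had the highest share, with 14 of 32 hosting (43.8%, against 13.8% at the rate for their intron content) and 34.4%, 40.6% and 56.2% in the replicates. The strongest sites were in aos, a secreted inhibitor of EGFR, at 450, Mad, the transcription factor of the BMP pathway, at 365, and aop, an ETS repressor, at 342. Each was held by all 3 replicates, as were nearly all intronic peaks in the strongest bin of pooled signal. Of the names on this list, 36 of 39 matched the annotation, and Raf, listed there under an older name, was not counted.

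Ecdysone response genes and hormone receptors came next, with 8 of 22 hosting (36.4%, against 19.0%) and 22.7%, 31.8% and 50% in the replicates. They include Hr4 at 421, ImpL2, a secreted insulin antagonist, at 386, and EcR, the ecdysone receptor, at 247. A mixed list of clock genes and kinases had 11 of 32 (34.4%, against 14.9%; replicates 21.9%, 37.5% and 34.4%), led by Lk6 at 1185 and by mnb, a DYRK-family kinase gene, at 309. In the Notch pathway list 6 of 20 hosted (30%, against 12.6%; replicates 30%, 30% and 40%), with shn at 287, mam, the coactivator Mastermind, at 255 and neur, a ubiquitin ligase for Notch ligands, at 251. shn, the partner of Mad described above, is on the BMP list too, and 4 of the 10 peaks of the Notch list are in it.

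RNA-binding and splicing regulators hosted in 10 of 36 genes (27.8%, against 14.3%; replicates 22.2%, 27.8% and 33.3%), among them Sxl, the switch gene of sex determination, at 233, ps at 214 and Hrb27C at 209. Chromatin genes of the Polycomb and Trithorax groups and others hosted in 7 of 38 (18.4%, against 4.58%; replicates 18.4%, 18.4% and 15.8%), though their median eligible sequence was only 0.742 kb. They were led by HmgZ at 1165, trx at 654 and osa, a subunit of the Brahma complex, at 415. In these 6 lists, and in 4 described next (Wnt and Hedgehog, Hippo, insulin and TOR, zinc-finger and BTB), the lowest of the replicate shares lay above the rate for intron content in the thresholded list. That rate was not recomputed for each replicate, where all genes hosted at 4.07%, 5.27% and 7.94% against 5.15%. For the zinc-finger and BTB list the margin was only 16.3% against 16.1%.

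In the thresholded list several lists lay within 4 points of that rate. Cell adhesion and axon guidance genes had 12 of 50 (24.0%, against 20.5%; replicates 18%, 16% and 36%), with kirre at 353, the netrin receptor gene fra at 264 and Fas3 at 224. Developmental zinc-finger and BTB factors had 9 of 49 (18.4%, against 16.1%; replicates 16.3%, 16.3% and 30.6%), with ush, Trl and zfh1 (370) in front. The GTPase and cytoskeleton list had 7 of 46 (15.2%, against 13.4%; replicates 13%, 26.1% and 28.3%), with mbc at 258, trio at 229 and cv-c at 203, and Wnt and Hedgehog genes had 5 of 32 (15.6%, against 13.1%; replicates 21.9%, 15.6% and 31.2%), with the receptor gene fz at 446, slmb at 269 and dlp at 260.

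Small counts stood above it for the Hippo pathway, with 4 of 20 (20%, against 12.1%; replicates 15%, 20% and 25%), with msn at 236, dco at 193 and crb at 183, and for insulin and TOR signalling, with 4 of 23 (17.4%, against 7.31%; replicates 13%, 17.4% and 17.4%), with Lk6, the insulin receptor gene InR at 361 and REPTOR at 220. Both msn and Lk6 are on the list of clock genes and kinases too, so these lists share hosts.

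Neuronal and synaptic genes were furthest below the rate for their intron content among the 15 lists. Of 37, 2 hosted (5.41%, against 19.9%; replicates 2.70%, 10.8% and 13.5%), although their median eligible sequence was 25 kb. The 2 were elav, the neuronal RNA-binding protein gene, with a signal of 192 at 565 bp from a start, and dnc, a cAMP phosphodiesterase gene, at 154. Muscle genes had 2 of 27 (7.41%, against 12.4%; replicates 7.41%, 14.8% and 14.8%), how at 193 and Mef2 at 137. Segmentation and Hox genes had 3 of 31 (9.68%, against 11.1%; replicates 6.45%, 6.45% and 16.1%), with hth at 164, Abd-B at 141 and inv at 133, and none of these 3 sites was held by all 3 replicates.

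**Figure D5:**
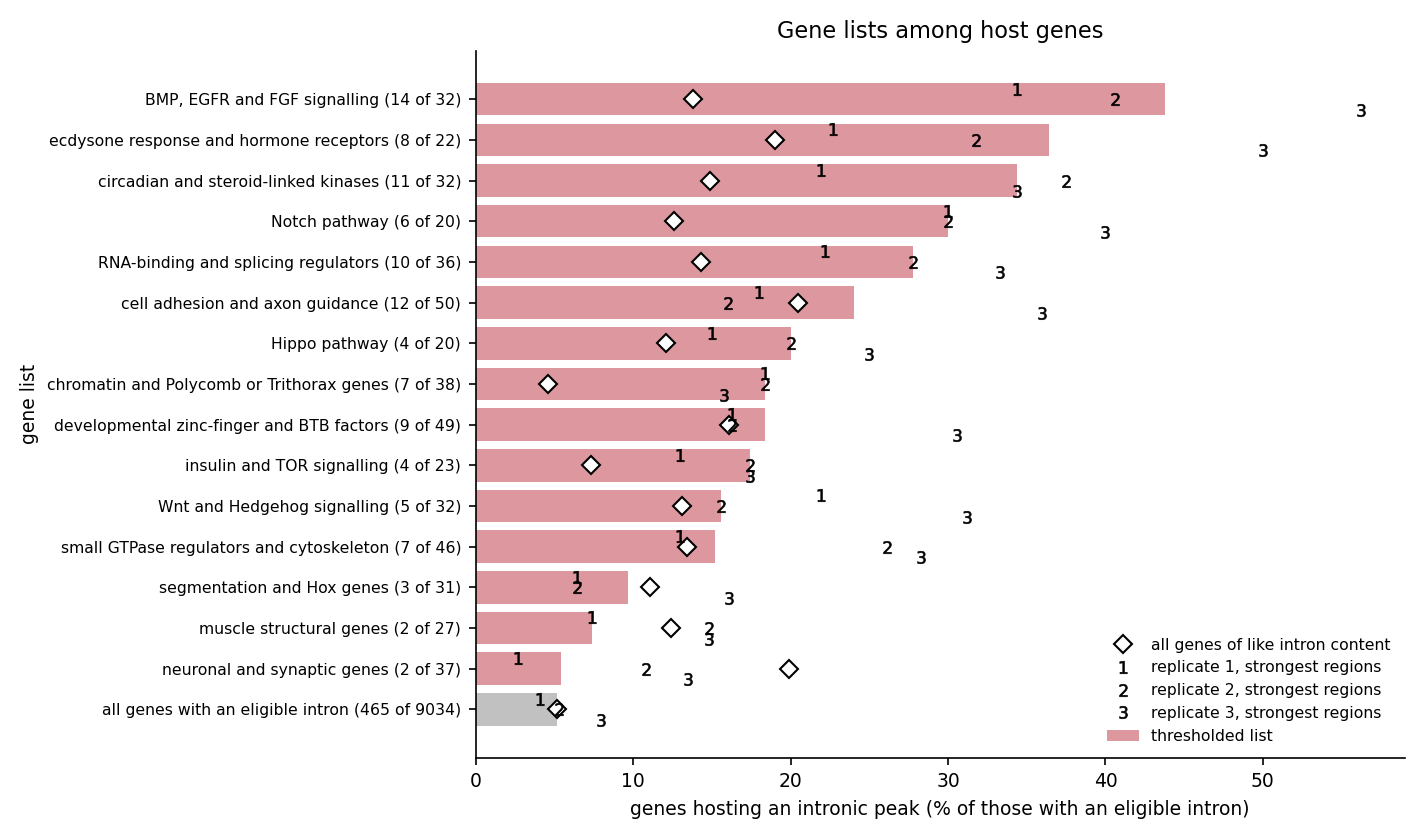
Share of genes (%) hosting an intronic peak in 15 gene lists and over all genes with eligible sequence, as bars for the thresholded list, with diamonds for the share at the rate of genes of like intron content and digits for the 3 replicates. The bar for BMP, EGFR and FGF signalling reaches 43.8% with its diamond at 13.8%, and that for neuronal and synaptic genes 5.41% with its diamond at 19.9%. The lists were chosen with earlier results of these data known.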

How the data were processed

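Intronic peaks were described in ChIP-seq region lists of 3 replicates of 1 group. Per the labels' listing text, the authors made a list of peaks and background regions from each library and 1 control alignment, a pooled list, and a list thresholded by the irreproducible discovery rate (IDR). Aligner, peak caller and IDR cut-off: not given in the sources used here. Deposited signal values, 1 per region, were made by the authors. The deposited signal has an unstated scale and was compared by rank within a list or by medians within the thresholded list. Summits come from the deposited offset. All 3 dm6 replicate lists, the pooled list and the thresholded list were used, and coordinates count from 1. The lists for dm3 were not used.

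Genes and exons came from Ensembl release 115 without transposable elements, sequence from RefSeq, and the RefSeq annotation of the same assembly picked the same 646 peaks. A gene had a promoter peak when a summit lay within 500 bp of one of its starts. Eligible sequence is every base that meets the positional rule. Motifs were counted within 100 bp of summits and in equal windows 500 bp to either side. Differences over replicates used two-sided exact sign-flip permutation tests, and peaks were never treated as replicates. Intervals are 95% Wilson or Poisson and cover counting error only. Scripts used Python 3.11.15, numpy 2.4.6, pandas 2.3.3, scipy 1.17.1 and matplotlib 3.10.9, and the classification was tested on planted gene models.

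The members, the 17 motifs and the 15 gene lists were chosen with earlier results of these data known. Named genes are the hosts of the 20 intronic peaks with the highest signal, the 12 hosts with most of them, up to 3 members of each list with the strongest, the 2 just inside and the 2 just outside the limit of 500 bp, and the 3 in the longest introns, farthest from a start, and strongest among the top 100 of each replicate. The GC profile, the GC dip, the runs of A or T, the hosting rate by intron content and the measures on single replicate lists were added after the data were seen. Alternatives changed the distance to a start, the starts counted, the summit, the peaks kept, the support rule, the rank rule, the intron, the motif window, the annotation, and left out each replicate in turn.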

Additional observations from a re-analysis of the deposited data

How the results depend on the processing

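No paired analysis was possible because the samples form 1 group. Of 106 recomputed values 3 changed sign, 34 moved past a tolerance and 69 did not. The tolerance was 1.5 times for counts, 1 SD over replicates (22.3 points) for the support difference, the counting interval for other values, and the sign alone for the percentile difference. Within it the values still moved: 823 intronic peaks with a limit of 250 bp and 509 with 1000 bp, 143 and 94 hosts with 2 or more, a support difference of -3.78 by summits within 100 bp, and a percentile difference (-4.37 as reported) of -0.00938 in the stronger 2779 peaks, -20.2 in the strongest regions and -7.54 to -2.42 leaving out each replicate in turn. The sign changes were all in intronic minus promoter support by all 3 replicates (-12.2 points as reported), which became 7.59 in the stronger 2779 peaks, 10.7 with whole replicate lists and 11.3 without replicate 1 (leaving out each replicate in turn gave -26.9 to 11.3). Without replicate 1 the sign thus turned, and the cause was not tested.

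With a limit of 250 bp the median intron length was 6084 bp, the density within 2 kb of a start 38.5 per Mb (28.8 as reported) and the share of hosts with a promoter peak 63.8%. With 1000 bp, the first-intron share was 50.3%, the intron length 9477 bp and the density 24.9. The stronger 2779 peaks gave 209 intronic peaks, 61.2% in first introns, an intron length of 6896 bp, a density of 10.9, 19 hosts with 2 or more, 36.1% of hosts with a promoter peak (27.1% of genes with eligible sequence) and 37 list genes hosting (97 as reported). Peaks held by all 3 replicates gave 333, a density of 15.4, 39 hosts with 2 or more, 38% (30.3% of genes) and 57 list genes; fewer peaks lower these counts by construction. Support by only the other 2 replicates, leaving out each in turn, gave 355 to 528 intronic peaks (528 without replicate 1, 364 without replicate 2, 355 without replicate 3), a density of 16.1 to 24.6, 45 to 81 hosts with 2 or more, 40.9 to 46.9% of hosts with a promoter peak and 60 to 78 list genes. The lowest rank in any transcript gave 74.3% in first introns, and the intron of the longest transcript a median of 11448 bp. GAGAG lay in 9.44% of windows of 50 bp and 51.7% of windows of 200 bp either side. Reads per library are unknown, so what depth limits cannot be given.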

Other observations

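Intronic regions of the pooled list that fell below the threshold shared some features of the intronic peaks and not others. There were 5672 of them, 39.2% of the 14486 regions below the threshold, against 11.6% of the peaks above it. Their median GC content was 36.8% at the summit and 41% in the flanks, and 38.3% had a GC dip, against 67.5% of the intronic peaks. First introns held 44.7% of them, against 55.1% of the intronic peaks, and the nearest start was at a median of 3498 bp, against 2348 bp. GAGAG lay in 21.7% of their summit windows and 23.8% of their flanks. X had 0.993 times the density of the 4 large autosome arms among them, against 1.55 times among the intronic peaks. Of their hosts 56.3% had 2 or more, against 24.3%, and 50.3% had a promoter region (37.3% of all genes with eligible sequence), against 54.4% (42.7%). The larger number of regions, 5672 against 646, raises the share of hosts with 2 or more by construction. These regions include background by the authors' own description, so they are no set of binding sites.

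Promoter peaks were not all free of introns: 606 of 4532 (13.4%, 12.4 to 14.4%) had their summit in an intron within 500 bp of a start.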
